A study of Mus musculus with 15 samples.

Results

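Bcl6b and its paralog Bcl6 were followed through the loss and return of a stem cell growth factor. The members were the probe sets whose platform annotation names Bcl6b or Bcl6 alone, which gave 3 of the 45101 probe sets on the array, 1 for Bcl6b and 2 for Bcl6. The first Bcl6 probe set, whose name ends in _at, had the higher mean and represented the gene, and the second has a name ending in _a_at, which marks probe sets that match several transcripts of a gene. Both genes were among the 13083 genes tested, and all 3 probe sets lay above the filter on dim signals. The cells came from mouse germ cell cultures enriched for spermatogonial stem cells, from which sperm production is renewed, and the cultures were started from C57BL/6 males aged 6 days. They grew in defined medium without serum that held bFGF and, in the maintained group, GDNF (glial cell line-derived neurotrophic factor) with its co-receptor GFRalpha1 throughout. The withdrawal group went 18 h without GDNF and GFRalpha1, and the replacement groups then had both back for 2 h, 4 h or 8 h. Each of the 5 groups had 3 arrays, and no genotype or transgene is named in any of them. The labels name no group handled alike without the factors, so an effect of the returned factors and an effect of handling or of later time cannot be told apart. Nor do the labels give a separate culture for each replicate, so p-values measure the spread between these samples, which may be technical. The number of arrays limits the precision.

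Bcl6b and Bcl6 encode transcriptional repressors of 1 family, each with an N-terminal BTB/POZ domain, which binds partner proteins and corepressors, and C-terminal zinc fingers, which bind DNA. BCL6 is best known from lymphocytes, where it directs the germinal centre reaction. BCL6B was found through its likeness to BCL6 and is known in testis as a factor that spermatogonial stem cells use for self-renewal downstream of GDNF. GDNF acts on these cells through GFRalpha1 and the receptor tyrosine kinase RET.

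RefSeq (GRCm38.p6) gave 2 start sites for Bcl6, on the minus strand of chromosome 16, and the table used here held no window for Bcl6b. The 250 bases before each are printed because STAT and FOXO factors, known regulators of Bcl6 in lymphocytes, are among the genes measured below. Capitals mark exact matches to the motifs searched, on both strands. Window 1 is chr16:23988853-23989102 and window 2 is chr16:23981284-23981533.
Bcl6 window 1: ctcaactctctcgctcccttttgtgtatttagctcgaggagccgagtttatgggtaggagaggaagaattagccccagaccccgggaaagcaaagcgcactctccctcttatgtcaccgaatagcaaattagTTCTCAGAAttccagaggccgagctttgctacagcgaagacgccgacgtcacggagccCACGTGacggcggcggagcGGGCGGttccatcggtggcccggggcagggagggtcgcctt
Bcl6 window 2: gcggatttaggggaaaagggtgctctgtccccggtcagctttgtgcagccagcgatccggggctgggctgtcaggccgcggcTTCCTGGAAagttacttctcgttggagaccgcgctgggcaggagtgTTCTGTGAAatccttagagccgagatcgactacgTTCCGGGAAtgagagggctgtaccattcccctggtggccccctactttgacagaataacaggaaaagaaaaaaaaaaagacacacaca

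The search also covered the 50 bases after each start site, 300 in all. Window 2 held 3 matches to the STAT pattern TTCNNNGAA, 168, 122 and 88 bases before the start site. Window 1 held 1 STAT match 118 bases before it, an E-box (CACGTG) 60 bases before it and an SP match (GGGCGG) 41 bases before it, with another SP match after it. Of 32817 RefSeq windows of this length, 8.29% held a STAT match, 7.15% an E-box and 35.6% an SP match. Neither Bcl6 window held an ETS core (CCGGAAGT, 3.89% of windows), EGR (GCGTGGGCG, 0.612%), CRE (TGACGTCA, 1.79%), AP-1 (TGACTCA, 5.20%), FOXO (GTAAACA, 3.65%) or BCL6 (TTCCTAGAA, 0.411%) match. A match describes the letters only.

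Signal was computed with MAS5 and has arbitrary units, and every array as deposited has the same trimmed mean of 150. A gene or probe set is called where the adjusted p from limma (Benjamini-Hochberg over the 13083 genes, or over 27022 probe sets where stated) was under 0.05, and log2 differences are on the scale of log2 of signal plus 16. Values with ± are mean and SD of signal over n = 3 arrays, and levels of different probe sets are not compared. Median signal per array ran from 42.5 to 55.8. Replicate 3 of the withdrawal group stood apart in the beta-actin control, whose 3′ to 5′ ratio was 2.77 there and 1.10 to 1.75 on the other 14 arrays. Markers of germ cells, 12 on the array, were all above the filter. Bcl6b and Bcl6 are also expressed in endothelial cells and lymphocytes. Of 15 endothelial markers 9 were above the filter. Of the 6 below it, Vwf (0.8 to 5.5) and Tie1 (0.8 to 10.3) were lowest, while Pecam1 ran from 6.6 to 54.6 over the arrays. Of 10 lymphocyte markers 5 were above it. In bulk cultures fewer cells of a type and less RNA per cell cannot be told apart.

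The first comparison asked what happened to both paralogs when GDNF and GFRalpha1 were taken away. Bcl6b fell 5.94-fold and had the lowest log2 difference of all 13083 genes. The members were chosen with earlier results of these data known, so the ranks of Bcl6b carry no independent weight. Bcl6 was 1.46-fold higher on its first probe set, the one with the higher mean, and was not called. The 2 paralogs thus differed in their change over the same 6 arrays by 3.11 log2 units.

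The signal of Bcl6b was 728.1, 465.2 and 695.8 on the 3 maintained arrays (630 ± 143). After 18 h of withdrawal it was 96.4, 66.0 and 116.2 (92.9 ± 25.3), or 14.7% of the maintained mean. All 3 withdrawal arrays were far under all 3 maintained ones, and replicate 2 was the lowest of each group. The log2 difference was -2.57 (SE 0.23, 95% confidence interval -3.06 to -2.08, limma adjusted p = 8.68e-06). Of all genes 8.04% were called in this comparison, 3.83% lower, and 26.8% had groups that did not overlap. The 1052 calls behind the first share were 517 without maintained replicate 3, 531 without maintained replicate 2 and 659 without withdrawal replicate 3. By p-value Bcl6b ranked 5 of 13083. Without withdrawal replicate 3, the array with the high control ratio, the log2 difference was -2.72 (limma adjusted p = 1.83e-05). The summed signal of the 12 germ cell markers was 17618 to 19210 in maintained and 15044 to 17090 in withdrawal cultures, which did not overlap. Of these markers Epcam, Gfra1, Id4 and Itga6 were called lower on withdrawal and Zbtb16 higher, 5 of 12, with a median log2 difference of -0.04. Of the 12, 5 had a log2 difference above 0 and 7 below. Gfra1, Id4, Ret, Sall4 and Zbtb16 also stand in the list of GDNF-regulated genes below. Dazl, the brightest marker, had a mean of 6875 in maintained and 5682 in withdrawal cultures, and Ddx4 of 1175 and 1169. The summed signal was 17293 to 18310 at 2 h, 16534 to 17683 at 4 h and 15999 to 17261 at 8 h. The part of germ cell content in the Bcl6b values was not tested.

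On the first probe set of Bcl6 the signal was 82.8, 109.7 and 134.7 in maintained cultures (109 ± 26.0). After withdrawal it was 166.3, 151.5 and 173.9 (164 ± 11.4), or 150% of the maintained mean. The withdrawal arrays were all above the maintained ones, in a comparison where 26.8% of all genes did not overlap. The maintained arrays themselves varied widely. The log2 difference of 0.54 (SE 0.18, 95% confidence interval 0.16 to 0.92) missed the threshold (limma adjusted p = 0.0728). Over the alternatives tried the adjusted p ran from 0.0560 to 0.221.

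The second probe set of Bcl6 gave 67.1, 62.6 and 83.6 in maintained cultures (71.1 ± 11.1). After withdrawal it gave 142.0, 150.0 and 49.7 (114 ± 55.7). Replicates 1 and 2 of withdrawal were above every maintained array, and replicate 3 was below all of them. Its log2 difference was 0.47 (SE 0.38, limma adjusted p = 0.538 over 27022 probe sets, of which 4.42% were called) and 0.90 without that replicate (limma adjusted p = 0.199).

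**Figure D1:**
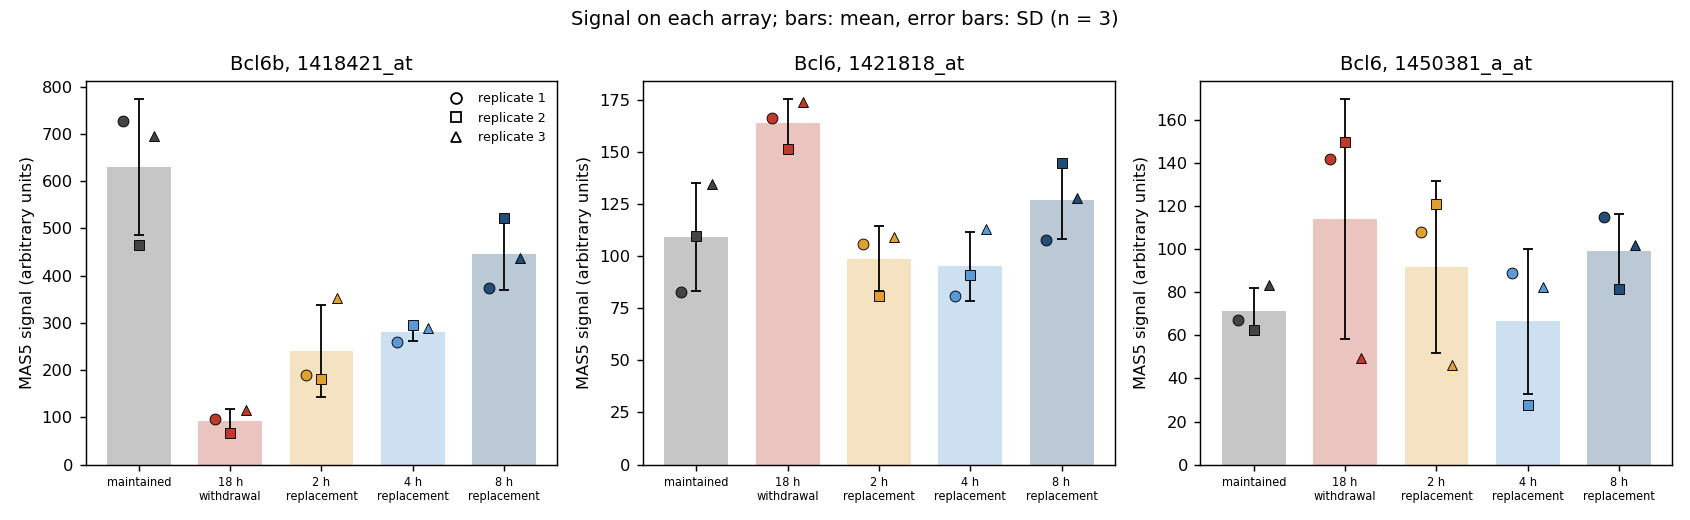
MAS5 signal (arbitrary units) of the Bcl6b probe set and both Bcl6 probe sets on each of the 15 arrays, by group, with bars for the mean and error bars for the SD over 3 arrays. Bcl6b is at 465.2 to 728.1 in maintained cultures and 66.0 to 116.2 after withdrawal, while the first Bcl6 probe set is at 82.8 to 134.7 and 151.5 to 173.9.

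The next comparisons asked how far each gene came back when the factors were returned. They share the 3 withdrawal arrays, so their values are given side by side and are not independent. Bcl6b was higher than after withdrawal on every array of every replacement group, and the difference was called at 4 h and at 8 h but not at 2 h. Bcl6 on its first probe set was lower than after withdrawal on every replacement array, and was called at 4 h alone, a call that few alternatives kept.

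At 2 h of replacement the Bcl6b signal was 189.9, 180.2 and 353.4 (241 ± 97.3), or 38.3% of the maintained mean. Replicate 3 was well above the other two, and all 3 arrays lay between the withdrawal and the maintained arrays. Against withdrawal the log2 difference was 1.20 (2.31-fold, SE 0.23, 95% confidence interval 0.71 to 1.70) with a limma adjusted p of 0.0556. In that comparison 0.115% of all genes were called, 15 in number, and 14.6% did not overlap. Bcl6b passed the threshold with array weights (limma adjusted p = 0.00600) and with the replicate number as a block (limma adjusted p = 0.0357), and with only the 2 groups compared in the fit it was 0.539 (limma).

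At 4 h the Bcl6b signal was 259.0, 296.0 and 288.5 (281 ± 19.6), or 44.7% of the maintained mean. This was the group with the least spread, and no array overlapped the withdrawal group. The log2 difference from withdrawal was 1.47 (2.78-fold, 95% confidence interval 0.98 to 1.97, limma adjusted p = 0.00452), where 2.64% of genes were called and 21.4% did not overlap. At 8 h the signal was 373.8, 522.9 and 438.1 (445 ± 74.8), or 70.7% of the maintained mean. Replicate 2 was above the lowest maintained array and the others were below it. The log2 difference from withdrawal was 2.10 (4.28-fold, 95% confidence interval 1.60 to 2.59, limma adjusted p = 0.000242), where 2.39% of genes were called and 21.5% did not overlap. Among rises from withdrawal to 8 h, only 1 gene of the 13083 had a larger log2 difference than Bcl6b, which ranked 2.

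Against maintained cultures Bcl6b was still lower at 2 h of replacement, by a log2 difference of -1.36 (2.58-fold, limma adjusted p = 0.00499), where 2.43% of genes were called and 23.7% did not overlap. At 4 h it was lower by -1.10 (2.14-fold, limma adjusted p = 0.0320), where 0.955% were called and 17.2% did not overlap. That call was lost without maintained replicate 1 (limma adjusted p = 0.114) or 3 (0.151) and without replicate 1 (0.0827), 2 (0.0645) or 3 (0.117) of the 4 h group. At 8 h the log2 difference was -0.47 (1.39-fold, 95% confidence interval -0.97 to 0.02) and was not called (limma adjusted p = 0.311), where 0.482% of genes were and 26.6% did not overlap. The interval includes 0 as well as a clear deficit, so the 8 h level is not shown to equal the maintained one.

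Between replacement times the Bcl6b differences did not pass the test. The log2 difference was 0.27 from 2 h to 4 h (limma adjusted p = 0.637), where 1.94% of genes were called and 19.9% did not overlap, while the Bcl6b arrays did. From 4 h to 8 h it was 0.62 (95% confidence interval 0.13 to 1.12, limma adjusted p = 0.267), where no gene was called, 1943 had an unadjusted p under 0.05 and 21.4% did not overlap. From 2 h to 8 h it was 0.89 (95% confidence interval 0.40 to 1.39, limma adjusted p = 0.0621), where 1.85% of genes were called and 25.6% did not overlap. That last difference was called without withdrawal replicate 3 (limma adjusted p = 0.0396) or without replicate 3 of the 2 h group (0.0218). In order of level the groups of Bcl6b therefore ran withdrawal, 2 h, 4 h, 8 h and maintained, and of neighbours in that order only withdrawal and 2 h, and 4 h and 8 h, had arrays that did not overlap, neither pair being called.

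Bcl6 on its first probe set was at 105.9, 81.0 and 109.4 after 2 h of replacement (98.8 ± 15.5), or 90.6% of the maintained mean. At 4 h it was at 81.1, 91.1 and 113.2 (95.1 ± 16.4), or 87.2%. At 8 h it was at 107.9, 144.6 and 127.7 (127 ± 18.4), or 116%. All 9 replacement arrays were below the lowest withdrawal array, and all 3 replacement groups overlapped the maintained group. Of all genes 14.6%, 21.4% and 21.5% did not overlap the withdrawal group at 2 h, 4 h and 8 h, and 2.64% were called at 4 h. Against withdrawal the log2 difference was -0.66 at 2 h (limma adjusted p = 0.330), -0.70 at 4 h (1.63-fold lower, SE 0.18, 95% confidence interval -1.08 to -0.32, limma adjusted p = 0.0463) and -0.34 at 8 h (limma adjusted p = 0.387). The 4 h call stands close to the threshold. It was kept without maintained replicate 1 (limma adjusted p = 0.0409) and lost when any of the other 14 arrays was left out (up to 0.161), and 22 of 27 alternatives in all ended it.

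Against maintained cultures the log2 difference of Bcl6 on its first probe set was -0.11 at 2 h, -0.16 at 4 h and 0.20 at 8 h, with limma adjusted p from 0.568 to 0.816. The sign at 2 h turned when both Bcl6 probe sets were averaged (0.060). It also turned without maintained replicate 3 (0.033) or replicate 2 of the 2 h group (0.0047). Between replacement times the log2 difference was -0.05 from 2 h to 4 h, 0.36 from 4 h to 8 h and 0.32 from 2 h to 8 h, with limma adjusted p from 0.357 to 0.938. The groups of Bcl6 thus ran 4 h, 2 h, maintained, 8 h and withdrawal from low to high, and of neighbours in that order only 8 h and withdrawal had arrays that did not overlap, without being called.

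**Figure D2:**
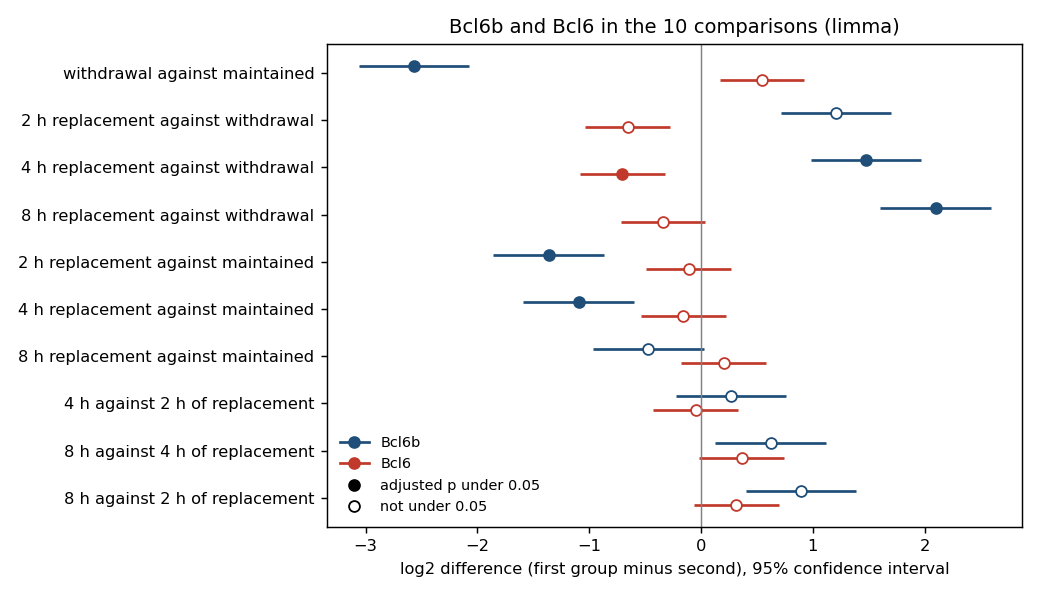
Log2 difference (first group minus second) with its 95% confidence interval for Bcl6b and Bcl6 (first probe set) in 10 comparisons, with filled points where the limma adjusted p was under 0.05. Bcl6b has filled points in 5 comparisons and Bcl6 in 1, at 4 h against withdrawal (-0.70).

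The second Bcl6 probe set was at 107.9, 121.0 and 46.1 at 2 h (mean 91.7). It was at 89.1, 27.8 and 82.7 at 4 h (66.5 ± 33.7) and at 114.8, 81.4 and 101.9 at 8 h (99.4 ± 16.8). A single low array in each of the withdrawal, 2 h and 4 h groups set the spread. Its arrays overlapped in all 10 comparisons, in which between 13.8% and 23.8% of the 27022 probe sets did not, and it was called in none of them. Against withdrawal its log2 difference was -0.24 at 2 h, -0.64 at 4 h and -0.07 at 8 h (SE 0.38, limma adjusted p 0.422 to 0.963). At 4 h it was called with array weights (-1.09, limma adjusted p = 0.0403 over probe sets). Its sign against withdrawal turned at 2 h without replicate 3 of that group (0.12), and at 8 h without withdrawal replicate 1 (0.13) or 2 (0.17) or 8 h replicate 2 (0.051).

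The 2 Bcl6 probe sets ranked the arrays differently, with a Pearson r of 0.21 over 15 arrays and 0.80 over the 5 group means, given as a description. The 3 lowest signals of the second were on replicate 2 of 4 h, replicate 3 of 2 h and replicate 3 of withdrawal, whose beta-actin 3′ to 5′ ratios were 1.52, 1.28 and 2.77. The array with the second highest ratio, replicate 3 of 4 h at 1.75, had a signal of 82.7, rank 7 from the lowest. On withdrawal replicate 3 the first probe set had its highest signal of all, 173.9. The part of the control ratio in these values was not tested.

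**Figure D3:**
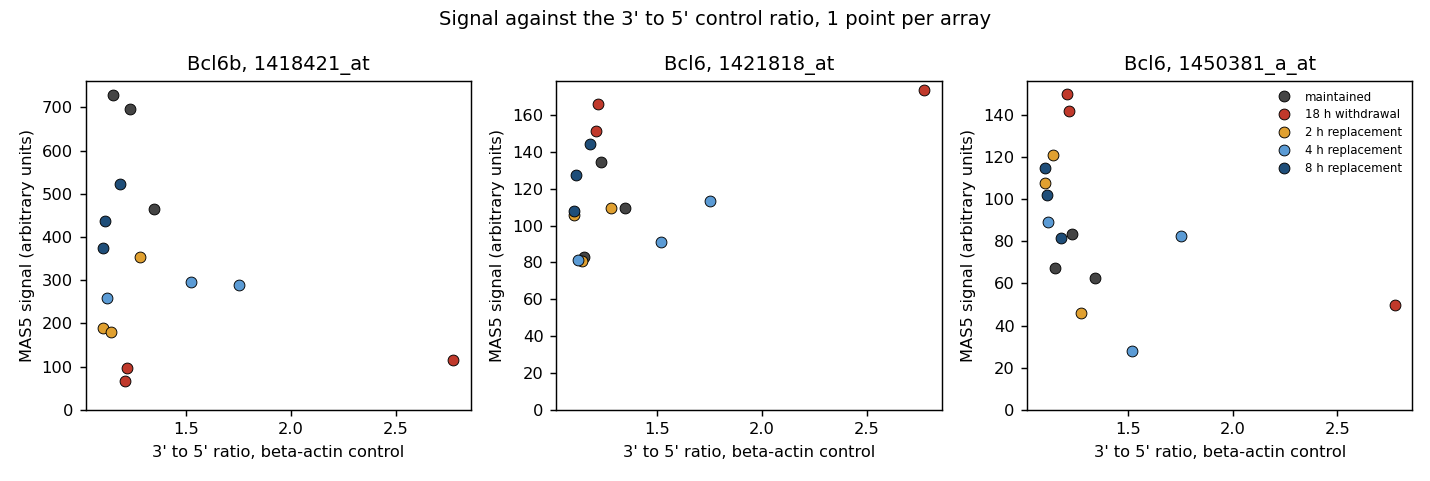
MAS5 signal (arbitrary units) of each probe set against the beta-actin 3′ to 5′ ratio, 1 point per array, coloured by group. The array at a ratio of 2.77, withdrawal replicate 3, has the highest signal of the first Bcl6 probe set (173.9) and the third lowest of the second (49.7), while its Bcl6b signal (116.2) is the highest of the withdrawal group.

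The change in the 2 paralogs was set against each other within each array as log2 Bcl6b minus log2 Bcl6 (first probe set), whose shifts between groups can be read but whose level cannot. It was 2.36 ± 0.50 in maintained cultures, -0.75 ± 0.26 after withdrawal, 1.11 ± 0.41 at 2 h, 1.43 ± 0.17 at 4 h and 1.69 ± 0.05 at 8 h (SD, n = 3). The withdrawal arrays, at -1.03 to -0.52, did not overlap any other group. Withdrawal moved it by -3.11 (SE 0.32), and replacement moved it by 1.86 at 2 h (SE 0.28), 2.18 at 4 h (SE 0.18) and 2.44 at 8 h (SE 0.15). An exact two-sided permutation test gave p = 0.1 for each of the 4 shifts, the smallest that 3 arrays against 3 allow, and 0.1 after adjustment over the 4. Over all 15 arrays the Pearson r of Bcl6b was -0.39 with the first Bcl6 probe set and -0.38 with the second, as a description.

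Bcl6b belongs to a list of 22 GDNF-regulated self-renewal genes, 20 of them tested. Part of that list was named in work on these same samples, so its direction here carries no independent weight. On withdrawal 12 of the 20 were called lower and 2 higher (Foxo1 and Zbtb16), with a median log2 difference of -0.95, against a median of 0.06 and a called share of 8.04% over all genes. Besides Bcl6b these were the ETS factors Etv4 and Etv5, the immediate-early factor Egr2, the homeobox genes Lhx1 and Pou3f1, the inhibitor of DNA binding Id4, the chemokine receptor Cxcr4, the T-box factor Eomes, the cyclins Ccnd2 and Ccne1, and Gfra1. By 2 h Bcl6b had regained a smaller share of its fall than several of these genes and a larger one than others. At 2 h the regained share of the log2 fall was 46.9% for Bcl6b, 97.9% for Etv4, 81.2% for Egr2 and 78.4% for Etv5, and 24.95% for Cxcr4 and 30.3% for Id4. At 8 h it was 81.6% for Bcl6b, 93.5% for Etv4, 101.3% for Etv5, 81.7% for Egr2, 58.0% for Cxcr4 and 56.5% for Id4. Pou3f1 regained 86.5% at 4 h and 18.3% at 8 h. These shares were not tested against each other.

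Over the 501 genes called lower on withdrawal, the median regained share was 36.1% at 2 h, 59.6% at 4 h and 52.2% at 8 h. Bcl6b was at 46.9%, 57.4% and 81.6%. It lay within the quartiles at 2 h (18.8% to 52.2%) and 4 h (38.1% to 81.4%) and above the upper quartile of 74.7% at 8 h. The same withdrawal arrays enter both the fall and the regained part, and the 501 genes were chosen by that fall. These shares are therefore a description. Of the 20 tested list members 4 were called higher than withdrawal at 2 h (Egr2, Etv4, Etv5 and Lhx1), where 0.115% of all genes were called, and 8 at 4 h, where 2.64% were. At 8 h 8 were called higher and Foxo1 lower, where 2.39% of all genes were called. Of the 4 calls at 2 h, those of Etv5 and Lhx1 were lost when single arrays were left out, 10 and 13 of the 15 in turn, and the count was 2 without any of 10 arrays, withdrawal replicate 3 among them. At 4 h the count was 5 without replicate 2 of that group, and ran from 3 to 11 over all 27 alternatives.

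**Figure D4:**
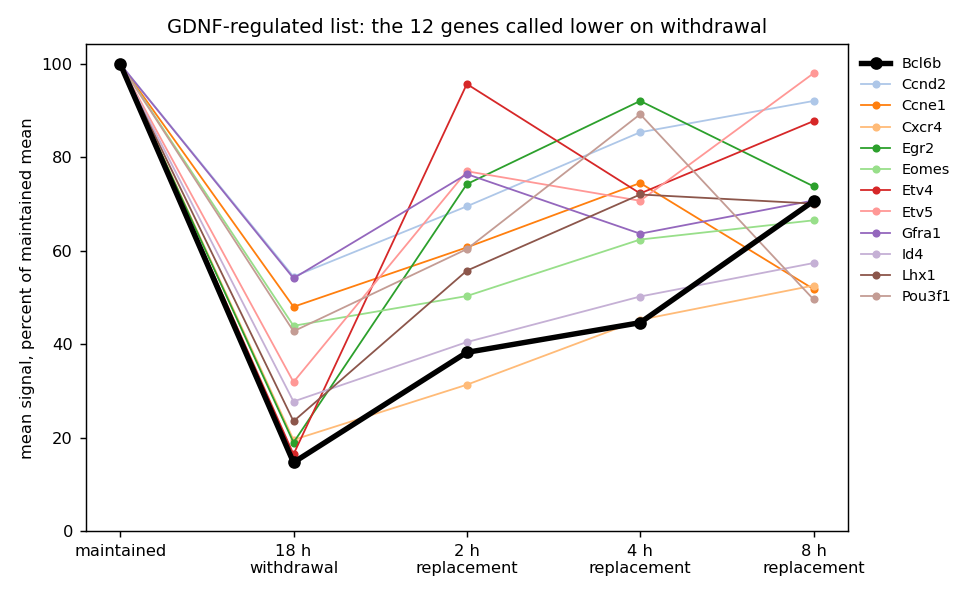
Mean signal as a percent of the maintained mean for the 12 listed GDNF-regulated genes called lower on withdrawal, over the 5 groups, with Bcl6b as the heavy black line. Bcl6b goes from 14.7% after withdrawal to 38.3%, 44.7% and 70.7% at 2, 4 and 8 h, and Etv4 is at 95.7% by 2 h.

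Genes whose pattern was most like that of Bcl6b were ranked by Pearson r over the 15 arrays, on the log2 scale, as a description. The 8 highest were Tmc6 (0.965), a membrane protein gene, Tmem59l (0.945), Nefm (0.928), a neurofilament subunit, and Ppp1ca (0.921), a catalytic subunit of protein phosphatase 1. They were followed by Ripk3 (0.915), a kinase of necroptosis, Cdc42ep3 (0.912), an effector of CDC42, Tcl1 (0.911), a coactivator of the kinase AKT, and Mapk12 (0.909), a p38 kinase. All 8 were called lower on withdrawal and higher at 8 h of replacement, where 3.83% and 1.30% of all genes were. They were chosen for likeness to Bcl6b on these same arrays, so their calls carry no independent weight. Tmc6 was at 392.2 ± 36.4 in maintained cultures, 154 ± 21.8 after withdrawal, 220 ± 67.6 at 2 h, 301 ± 23.9 at 4 h and 311 ± 19.4 at 8 h. It followed Bcl6b within groups as well, with an r of 0.948 between deviations from the group means. Of 12375 genes ranked, 15 had an r over 0.9 with Bcl6b and 6 an r under -0.9. Over the 5 group means the r of the 8 genes ran from 0.94 (Ripk3) to 0.99 (Tmem59l). Between deviations from the group means it ran from 0.53 (Nefm) to 0.73 (Ripk3) for the genes other than Tmc6. The parts of group differences and of anything the arrays share in such an r were not tested.

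The 4 most opposed to Bcl6b were Cd274 (-0.934), which encodes the immune checkpoint ligand PD-L1, Ptch1 (-0.933), the Hedgehog receptor, Agpat5 (-0.927), an acyltransferase, and Rasgef1b (-0.918), an exchange factor of small GTPases. All 4 were called higher on withdrawal, and Cd274 and Ptch1 were called lower at 8 h, where 4.21% and 1.09% of all genes were. These calls too follow from a choice made on the same arrays. Cd274 was at 62.5 ± 6.86 in maintained cultures and 258 ± 45.8 after withdrawal (3.46-fold, limma adjusted p = 3.03e-05). It was then at 132 ± 12.51, 110 ± 29.3 and 77.6 ± 17.2 at 2, 4 and 8 h. Its r with Bcl6b was -0.998 over the 5 group means and -0.28 between deviations from them.

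**Figure D5:**
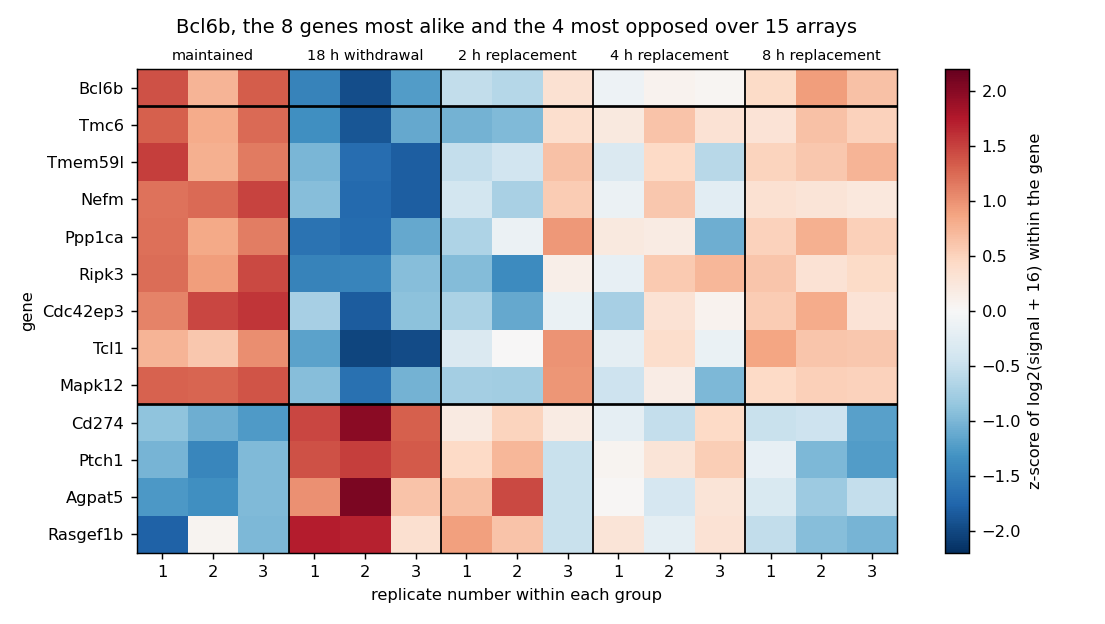
Z-score within each gene of log2 signal plus 16, on 15 arrays in their groups, for Bcl6b, the 8 genes with the highest and the 4 with the lowest Pearson r to it. The first 9 genes are low and the last 4 high on the withdrawal arrays, and Tmc6 (r = 0.965) and Cd274 (r = -0.934) stand at the ends of the ranking.

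Likeness to Bcl6 (first probe set) was lower throughout. The highest r values were those of Srek1 (0.857), a splicing regulator, the zinc finger gene Zfp945 (0.820), the deubiquitinase gene Usp2 (0.817), Vps13a (0.817), a lipid transfer protein gene, Rttn (0.814), Gcnt2 (0.811), Lhx4 (0.808) and Dnajb14 (0.806), and no gene reached 0.9. Of these 8 genes, also chosen on these arrays, only Zfp945 was called on withdrawal, where it was higher and 8.04% of all genes were called. The most opposed were Mcl1 (-0.813), an apoptosis inhibitor of the BCL2 family, Plch2 (-0.805), Alg13 (-0.775) and Klf10 (-0.760), of which Klf10 was called lower on withdrawal (limma adjusted p = 0.0236) and higher at 8 h (0.0251).

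Relatives with a BTB/POZ domain and zinc fingers formed a list of 46, of which 44 were tested. On withdrawal 5 were called higher and 1 lower, 6 of 44 or 13.6% against 8.04% of all genes, and 29 had a log2 difference above 0 and 15 below, with a median of 0.16. Zbtb22 was at 415 ± 86.6 against 225 ± 12.1 (1.77-fold, limma adjusted p = 0.00179), and was called under every alternative tried. Zbtb16, or PLZF, a marker of undifferentiated spermatogonia, was at 2468 ± 583 against 1414 ± 32.7 (1.71-fold, limma adjusted p = 0.0261). Zbtb12 (1.70-fold), Zbtb40 (1.59-fold) and Zbtb43 (1.39-fold) were also called higher, and Zfp131 was called lower (1.78-fold, limma adjusted p = 0.0420). The count of 6 was 1 without withdrawal replicate 3 or maintained replicate 3, and 3 without maintained replicate 2. None was called at 2 h against withdrawal, where 0.115% of all genes were. Zbtb40 was called lower at 4 h and Zbtb22 at 8 h (1.71-fold, limma adjusted p = 0.00822), 1 of 44 each, where 2.64% and 2.39% of all genes were called.

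Corepressors and partners that BCL6 is known to bind, 28 listed and 23 tested, gave 4 calls on withdrawal, 17.4% of those tested against 8.04% of all genes, with a median of 0.08. Hdac5 (1.62-fold), Mta3 (1.64-fold) and Tbl1x (1.35-fold) were called higher, and Ctbp2 was called lower, at 462 ± 116 (1.87-fold, limma adjusted p = 0.00825). The count was 2 without any one of maintained replicates 1, 2 and 3 or withdrawal replicate 3, and ran from 0 to 7 over all 27 alternatives. Mta3, a subunit of the NuRD complex, was called lower at 4 h against withdrawal (limma adjusted p = 0.0412), 1 of 23 where 2.64% of all genes were called. That call was lost without 11 of 15 arrays in turn. No member was called at 2 h or 8 h, where 0.115% and 2.39% of all genes were.

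Genes known as BCL6 targets in lymphoid cells, 34 listed and 24 tested with 8 too dim, gave 3 calls on withdrawal, 12.5% of those tested against 8.04% of all genes, and a median of -0.02. Cd274, described above, was called higher. In maintained cultures Myc was at 80.9, and after withdrawal at 15.4 ± 1.45 (3.04-fold lower, limma adjusted p = 0.000302), where the lower group lies under the filter's signal of 30.5 and the fold depends on the constant of 16. Ccnd2, which encodes cyclin D2, was called lower (1.86-fold, limma adjusted p = 0.00656) and stands in the GDNF list as well. Against withdrawal no member was called at 2 h, where 0.115% of all genes were. At 4 h Myc, Bach2 and Lrp8 were called higher and Cd274 lower, 4 of 24 where 2.64% of all genes were called. At 8 h Myc and Ccnd2 were called higher and Cd274 lower (2.93-fold, limma adjusted p = 0.000453), 3 of 24 where 2.39% of all genes were called. The 4 h count of 4 was 1 without withdrawal replicate 1 or 4 h replicate 2 or 3, and 2 without withdrawal replicate 2. Over all 27 alternatives that count ran from 0 to 8. The 8 h count of 3 was 1 without replicate 1 or 2 of the 8 h group.

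Known regulators of Bcl6 transcription, 15 listed and 13 tested, gave 2 calls on withdrawal, both higher, 15.4% of those tested against 8.04% of all genes, with a median of 0.33. Foxo1, a FOXO factor that activates Bcl6 in B cells, was at 908 ± 104 against 533 ± 38.7 (1.68-fold, limma adjusted p = 0.00179). Irf8, which binds the Bcl6 promoter in B cells, was at 207 ± 12.95 against 106 ± 13.2 (1.83-fold, limma adjusted p = 0.00258). Both were called lower at 8 h against withdrawal, Foxo1 by 1.73-fold (limma adjusted p = 0.00372) and Irf8 by 1.53-fold (limma adjusted p = 0.0454), 2 of 13 where 2.39% of all genes were called. The Irf8 call at 8 h was lost without 11 of 15 arrays in turn, and the count of 2 was 1 without any of 10 arrays. Among factors that bind the STAT pattern found in the Bcl6 windows, Stat3 had a log2 difference of 0.64 on withdrawal (limma adjusted p = 0.131), Stat5a -0.09 (0.760) and Stat5b 0.28 (0.486). Prdm1, a repressor that acts against BCL6 in B cells, had one of 0.24 (0.583).

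Markers of other cells were set beside these values. The summed signal of 15 endothelial markers was 683 to 732 in maintained, 595 to 772 in withdrawal, 567 to 801 in 2 h, 551 to 595 in 4 h and 664 to 800.5 in 8 h cultures. The withdrawal arrays thus overlapped the maintained ones, and the 4 h arrays were all below the maintained ones. This sum covers changes in both directions. On withdrawal Erg was called higher and Flt1 lower, 2 of 9 tested against 8.04% of all genes. Of the 9, 5 had a log2 difference above 0 and 4 below. Mean signal in maintained, withdrawal and 8 h cultures was 148, 86.9 and 129 for Kdr, 111, 49.6 and 110.5 for Flt1, and 56.9, 179 and 84.2 for Erg. In the same order it was 94.5, 42.7 and 61.1 for Sox18 and 50.7, 27.2 and 46.6 for Eng. For Cldn5 it was 40.7, 52.2 and 41.2, and for Robo4 40.4, 46.7 and 47.2. For Cdh5 it was 29.9, 33.7 and 31.9, and for Sox17 37.6, 39.0 and 45.5. The summed signal of 10 lymphocyte markers was 381 to 438 in maintained, 373 to 537 in withdrawal, 401 to 499 in 2 h, 384 to 499 in 4 h and 495 to 656 in 8 h cultures, so the 8 h arrays were all above the maintained ones. All 5 tested members had a log2 difference above 0 at 8 h against maintained, with a median of 0.52. Limma called none of them there, and 0.482% of all genes. Fibroblast markers, 14 on the array and 13 above the filter, summed to 7282 to 8881 in maintained cultures, 7070 to 11904 after withdrawal, 4722 to 7957 at 2 h, 13243 to 16136 at 4 h and 12024 to 15101 at 8 h. The 4 h and 8 h arrays were thus all above the maintained and the withdrawal ones. Against withdrawal 4 of 13 were called higher at 4 h and 4 at 8 h, none lower, where 2.64% and 2.39% of all genes were called. Macrophage and mast cell markers, 11 on the array and 10 above the filter, summed to 1748 to 2122 in maintained, 2134 to 2773 in withdrawal, 2429 to 3666 in 2 h, 3757 to 4419 in 4 h and 3573 to 5506 in 8 h cultures. All arrays of the other groups were above the maintained ones. At 8 h Cma1, Cpa3 and Mcpt4 were called higher against withdrawal, 3 of 10, where 2.39% of all genes were called. Those genes and Tpsb2 were called higher against maintained cultures, 4 of 10, where 0.482% were. Sertoli cell markers, 10 on the array and 8 above the filter, summed to 535 to 658.5 in maintained, 706 to 775 in withdrawal, 535 to 669 in 2 h, 659.6 to 724 in 4 h and 802 to 867 in 8 h cultures, so the withdrawal and the 8 h arrays were all above the maintained ones. Leydig and peritubular markers, 6 on the array and 2 above the filter, summed to 150.4 to 260.2 in maintained, 227 to 249.8 in withdrawal, 168.5 to 238.5 in 2 h, 308 to 375 in 4 h and 288 to 447 in 8 h cultures. Of the 2 tested, Cyp11a1 was called higher at 8 h against both withdrawal and maintained cultures, where 2.39% and 0.482% of all genes were called. The part of these other markers in the Bcl6b and Bcl6 values was not tested.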

How the data were processed

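Each of the 15 RNA samples was hybridised to 1 Affymetrix array with a single label. Per the submitters' processing notes the authors computed MAS5 signal, so the deposited values are an intensity on a linear scale; version, chip and scaling target were not given in the sources used here. Names came from the platform's annotation, which gave 1 symbol to 34958 probe sets. A constant of 16 was added before taking log2, 64 control probe sets and the dimmest 40% (under about 30.5) were left out, and the probe set with the highest mean stood for its gene, which gave 13083 genes. All 5 groups were fitted together with limma 3.58.1 in R 4.3.3 (eBayes with trend, 10 residual degrees of freedom), two-sided, with Benjamini-Hochberg adjustment and calls at an adjusted p under 0.05. The second Bcl6 probe set was judged in a fit over all 27022 probe sets. The fit was tested on simulated data. Likeness was ranked by Pearson r over genes with a named symbol, clone names skipped, naming 8 alike and 4 opposed. From each list the called members were named, at most 6 on withdrawal and 4 elsewhere by size. The members and lists were chosen with earlier results of these data known. Alternatives were the constant, filter, probe set choice, normalization, variance trend, array weights, samples in the fit, a replicate block and each array left out. Motifs were sought as exact matches in RefSeq GRCm38.p6 windows. Protein sequences of Bcl6b and Bcl6 were not analysed here.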

Additional observations from a re-analysis of the deposited data

How the results depend on the processing

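Bcl6b kept its calls for withdrawal against maintained, 4 h and 8 h against withdrawal and 2 h against maintained in all 27 alternatives (12 settings and 15 arrays left out in turn). Leaving out each array gave log2 differences of -2.77 to -2.38, 1.28 to 1.63, 1.91 to 2.25 and -1.66 to -1.20 in that order. Its 2 h rise over withdrawal (0.91 to 1.37) passed the threshold with array weights (1.12, limma adjusted p = 0.00600). Its 4 h deficit against maintained (-1.29 to -0.98) no longer passed without a filter, with every probe set tested, with arrays shifted to 1 median or without a variance trend (each -1.10). Its 8 h over 2 h difference (0.73 to 1.18) passed with array weights (1.02) and with only the groups compared (0.89). For the other comparisons of Bcl6b the ranges were -0.67 to -0.36 (8 h against maintained), 0.11 to 0.56 (4 h against 2 h) and 0.50 to 0.74 (8 h against 4 h).

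The Bcl6 difference at 4 h against withdrawal (-0.82 to -0.61) lost its call with a constant of 1 (-0.79), without a filter, with every probe set tested, without a trend or with only the groups compared (each -0.70), with the mean of probe sets (-0.67), with quantile normalization (-0.65) and with a shift to 1 median (-0.61). At 2 h (-0.72 to -0.54) it passed with array weights (-0.72). Bcl6 reversed at 2 h against maintained (-0.27 to 0.033) with the mean of probe sets (0.060) and without maintained replicate 3 (0.033) or 2 h replicate 2 (0.0047), and at 4 h against 2 h (-0.16 to 0.045) with array weights (0.090) and without 2 h replicate 1 (0.00074) or 3 (0.02) or 4 h replicate 1 (0.045). The ranges were 0.38 to 0.69 (withdrawal against maintained), -0.43 to -0.24 (8 h against withdrawal), -0.32 to -0.01 (4 h against maintained), 0.04 to 0.35 (8 h against maintained), 0.27 to 0.48 (8 h against 4 h) and 0.20 to 0.41 (8 h against 2 h). For the second probe set the sign turned in 7 cases, at 2 h against withdrawal (-0.67 to 0.12), at 8 h against withdrawal (-0.50 to 0.17, with 0.13 and 0.051 between), without 4 h replicate 2 at 4 h against maintained (-0.40 to 0.23) and against 2 h (-0.76 to 0.0011), and without 2 h replicate 3 at 8 h against 2 h (-0.19 to 0.38).

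The shift between paralogs became -2.54, 1.42, 1.67 and 1.96 with a constant of 64, and 1.44 at 2 h and 2.16 at 8 h with the second Bcl6 probe set, an alternative chosen after seeing the data. Leaving out arrays gave -3.33 to -2.84, 1.64 to 2.04, 2.04 to 2.29 and 2.30 to 2.55. Whether the numbers 1 to 3 pair the arrays was not settled. Between deviations from the group means, same-numbered arrays had correlations of -0.15 to 0.36 (7 of 30 pairs over 0.1). Their median was -0.02, and 0.01 for arrays of different number, while 11 of 15 arrays correlated best with their own number. With the replicate block Bcl6b was called at 2 h against withdrawal (1.20, limma adjusted p = 0.0357) and at 8 h against 2 h (0.89, 0.0468), and the calls on withdrawal were 1121 in place of 1052. Counts of called genes ran from 313 to 2297 on withdrawal, 5 to 67 at 2 h, 13 to 1609 at 4 h and 100 to 1192 at 8 h against withdrawal, with array weights highest each time. Against maintained they ran from 66 to 1626 (318 as reported), 26 to 529 (125) and 13 to 1280 (63) at 2, 4 and 8 h, and between replacement times from 46 to 1251 (254 from 2 h to 4 h), 0 to 278 (0 from 4 h to 8 h) and 61 to 904 (242 from 2 h to 8 h). Of 46 calls of named list genes 21 held in every alternative and none reversed. Of the 8 genes most like Bcl6b 4 to 8 stayed among the top 8 over 19 alternatives, and of those most like Bcl6 2 to 7. Of the 4 most opposed to Bcl6b 2 to 4 stayed, and of the 4 most opposed to Bcl6 0 to 4, the 0 with arrays shifted to 1 median. The cause of these changes was not tested.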

Other observations

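The genes next to each paralog in RefSeq order were looked at after the members' values were seen. Next to Bcl6b, Slc16a11 and Slc16a13, both monocarboxylate transporter genes, had log2 differences of -0.41 and -0.29 on withdrawal (limma adjusted p = 0.488 and 0.477). Rnasek, further along the same side as an untested clone gene, was at 84.3 ± 43.1 against 279 ± 186, a log2 difference of -1.46 that was not called (limma adjusted p = 0.0542). Lpp, next to Bcl6, had one of -0.19 (limma adjusted p = 0.605), and its other near neighbours Sst, Rtp2 and Tprg were not tested.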
